A study of Sus scrofa with 9 samples.

Results

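Caseins, statherin and the tooth protein ODAM belong to the secretory calcium-binding phosphoproteins, a family of tandemly duplicated genes whose unfolded, phosphorylated products bind calcium in milk, saliva and the surface of teeth. Their genes lie side by side in mammals, and in adult tissues they are known as products of secretory epithelium rather than of muscle. The locus described here comprises 5 of the 27339 genes of the count table, all on chromosome 8 of the pig: SULT1E1 (66811536 to 66838181 in Sscrofa11.1), CSN1S1 (66888231 to 66908306), STATH (66944851 to 66953345), ODAM (67059284 to 67068117) and LOC106507819 (67084574 to 67090540), which RefSeq annotates as a long noncoding RNA gene. They span 279 kb. The genes were chosen by symbol as neighbours whose response to DUX4 and DUXC was already known from these libraries, so their own levels are a description and carry no test.

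The cells were primary myoblasts, the precursors of skeletal muscle, of the Göttingen minipig at passages 7 to 9, and 9 RNA libraries were made from them. A doxycycline-inducible transgene encoded human DUX4 in 3 libraries, pig DUXC in 3 and GFP, the control, in 3. Every group, the control included, received 1 µg/mL doxycycline for 16 h. DUX4 and DUXC are double homeobox transcription factors, and human DUX4 is active in the early embryo and misexpressed in facioscapulohumeral muscular dystrophy. The labels do not say whether replicates were separate cultures, nor do they name the vectors or say whether the cells were clonal. The p-values below thus reflect the scatter among 3 libraries of a group, and that scatter may be technical.

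Total counts were 36580573 to 44420895 per library, and 15956 genes had enough counts to be tested, all 5 locus genes among them. Levels are CPM, read counts scaled to library size and composition, given as mean ± SD of n = 3 libraries, and they are not corrected for gene length, so they are compared between groups and not between genes. A gene without counts in a group could have reached 3 counts, the floor used here, which equals 0.0243 CPM in the DUX4 group and 0.0253 CPM in both the GFP and DUXC groups. Such floors, and the intervals given for ratios, cover counting error only. A fold given as at least a value sets the measured mean of 1 group against the floor of the other, and leaves out the error of that mean. Transcripts of the labelled cell type were low: none of 7 myoblast markers reached 10 CPM in the GFP libraries. DES had 7.15 CPM there and ITGA7 5.77 CPM. MYF5 had 84 counts over the GFP libraries, PAX7 48, CDH15 21, MYOG 6 and MYOD1 1. The 7 summed to 13.7 to 14.7 CPM with GFP, 18.4 to 21.2 with DUX4 and 7.82 to 8.87 with DUXC. ITGA7 stood at 14.8 CPM with DUX4 and 4.07 with DUXC, and DES at 2.10 and 1.07 CPM. The summed level of 6 fibroblast markers was 49467 to 52572 CPM in the GFP libraries, 28720 to 32431 in the DUX4 and 25358 to 25378 in the DUXC libraries, with 6 of the 6 lower with DUX4 and 5 lower and 1 higher with DUXC. The 4 endothelial markers summed to 5.62 to 6.70, 9.71 to 10.4 and 24.5 to 26.9 CPM in that order, and the 2 that could be tested, PECAM1 and KDR, rose with both factors. The 4 immune markers summed to 3.06 to 4.13, 2.19 to 2.56 and 2.69 to 2.89 CPM. In such bulk samples, fewer cells of a type and less RNA per cell cannot be told apart.

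In the GFP libraries the locus was nearly silent. SULT1E1, CSN1S1, STATH and ODAM had no count in any of the 3 libraries, and LOC106507819 had 5, 8 and 5. Zero counts with GFP were common among all genes (28.8%) but rare among tested genes, to which these 4 belong. Of the 15956 tested genes, 352 (2.21%) had no count with GFP. With DUX4 or DUXC, reads of all 5 genes appeared in every library. LOC106507819 was at 11.5 CPM or more with either factor, while each of the 4 protein-coding genes stayed below 1 CPM. With each factor, all 3 libraries lay above all 3 GFP libraries for the 5 genes, a property that 34% of all tested genes shared with DUX4 and 40.7% with DUXC and that follows from how the genes were chosen. Between the factors, 41% of all tested genes were higher in every DUX4 library than in every DUXC library and 42% were lower, and of the 5 genes 3 were higher, 1 was lower and 1 overlapped.

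**Figure D1:**
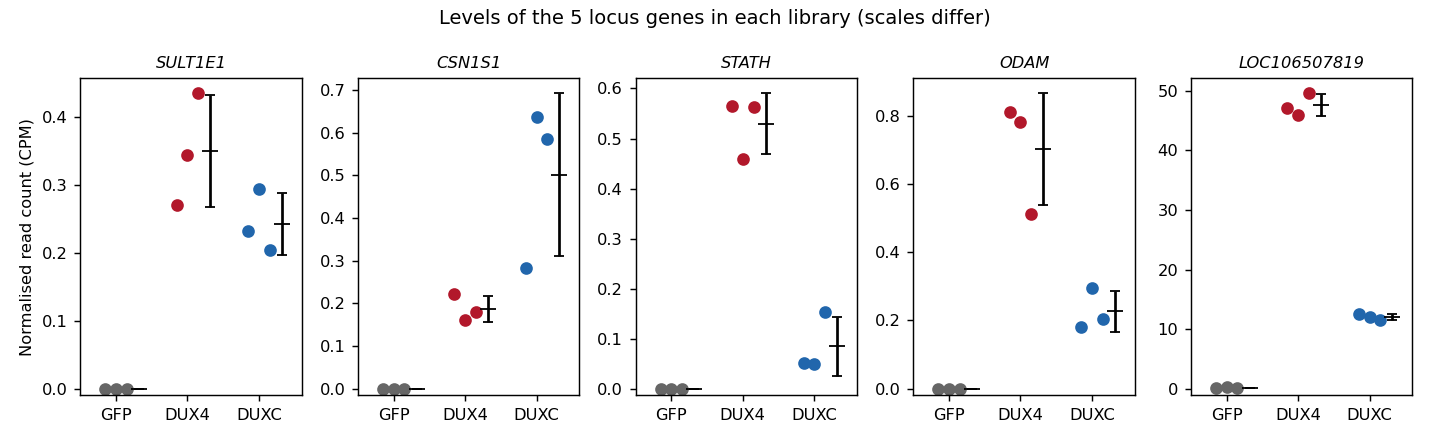
Normalised read count (CPM, linear axes that differ between panels) of the 5 locus genes in each library, 3 points per group in replicate order, with the group mean and SD as a bar at the right. SULT1E1, CSN1S1, STATH and ODAM are at 0 in all GFP libraries, CSN1S1 has its highest values with DUXC, and STATH, ODAM and LOC106507819 have theirs with DUX4.

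LOC106507819, for which no role is given here, had by far the most reads of the 5 genes. It had 47.2, 46.0 and 49.6 CPM in DUX4 replicates 1, 2 and 3, from 1919, 2006 and 1936 counts. The DUXC libraries had 12.5, 12.1 and 11.5 CPM, from 485, 494 and 450 counts, and the GFP libraries 0.122, 0.205 and 0.128 CPM. The order was thus DUX4, then DUXC, then GFP, with no overlap between any pair of groups and an SD of 1.84 CPM with DUX4 and 0.530 with DUXC. The fitted log2 fold change against GFP was 8.27 with DUX4, a rank of 51 among all 15956 tested genes, and 6.28 with DUXC, a rank of 578. These ranks only describe a gene chosen for its response, and they include genes without GFP counts, whose fitted values depend on the fit.

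Between the factors, LOC106507819 was 3.96-fold higher with DUX4 (fitted log2 1.98, 95% counting interval of the ratio 3.73 to 4.19). It lies inside the span of another long noncoding RNA gene, LOC102160683 (67080135 to 67100128), so its reads may include reads of that gene. LOC102160683 itself had 3 counts over the DUX4 libraries, 7 over the DUXC libraries and none with GFP. Of all reads counted over the 11 genes from SULT1E1 to the kappa-casein gene CSN3, LOC106507819 took 96.3% with DUX4 and 90.3% with DUXC.

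ODAM encodes the odontogenic ameloblast-associated protein, which is found where gum epithelium attaches to the tooth. Its level was 0.811, 0.780 and 0.513 CPM with DUX4, from 33, 34 and 20 counts, and 0.181, 0.294 and 0.204 CPM with DUXC, from 7, 12 and 8 counts. DUX4 replicate 3 was the lowest of its group and still lay above all DUXC libraries. Against GFP the level was at least 27.8-fold higher with DUX4 and at least 8.96-fold higher with DUXC. It was 3.10-fold higher with DUX4 than with DUXC (counting interval 2.00 to 4.98).

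STATH encodes statherin, a phosphoprotein that in human saliva keeps calcium phosphate from precipitating. Its level was 0.565, 0.459 and 0.564 CPM with DUX4, from 23, 20 and 22 counts, and 0.0516, 0.0490 and 0.153 CPM with DUXC, from 2, 2 and 6 counts. The DUXC libraries all lay below the DUX4 libraries, and replicate 3 held 6 of their 10 reads. Against GFP the level was at least 21.0-fold higher with DUX4 and at least 3.35-fold higher with DUXC, and the second of these bounds was at least 1.99-fold without DUXC replicate 3. STATH had the largest ratio of DUX4 to DUXC of the 5 genes, 6.26 (counting interval 3.20 to 13.7), and without DUXC replicate 3 the fitted log2 fold change between the factors went from 2.60 to 3.32.

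CSN1S1, which encodes a calcium-binding casein of milk, had the opposite order. Its level was 0.221, 0.161 and 0.179 CPM with DUX4, from 9, 7 and 7 counts, and 0.284, 0.637 and 0.586 CPM with DUXC, from 11, 26 and 23 counts. All DUXC libraries lay above all DUX4 libraries, although DUXC replicate 1 was close to them. The ratio of DUX4 to DUXC was 0.372 (counting interval 0.218 to 0.606), and the fitted log2 fold change of -1.42 ranged from -1.69 to -1.21 when each library was left out in turn. Against GFP the level was at least 7.41-fold higher with DUX4 and at least 19.9-fold higher with DUXC.

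SULT1E1 encodes the oestrogen sulfotransferase, an enzyme that inactivates oestradiol by adding a sulfate group. It had 0.270, 0.344 and 0.436 CPM with DUX4, from 11, 15 and 17 counts, and 0.232, 0.294 and 0.204 CPM with DUXC, from 9, 12 and 8 counts. The libraries of the 2 factors overlapped, and the ratio of 1.44 had a counting interval of 0.872 to 2.37, so the order of DUX4 and DUXC was not resolved at this depth. Against GFP the level was at least 13.9-fold higher with DUX4 and at least 9.64-fold higher with DUXC.

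The other genes between SULT1E1 and the enamel gene ENAM had few or no reads. In this stretch of 620 kb lie 11 further genes, none with enough counts to be tested, and all 11 had no count with GFP. With DUX4, 6 of them had a count, adding up to 7, 4 and 2 reads per library, and with DUXC 8 had a count, adding up to 13, 21 and 29 reads. Of all 7860 genes without counts with GFP, 25.6% had at least 1 count with DUX4 and 45.9% with DUXC. The casein gene CSN1S2 had 1 count over the DUX4 libraries and 11 over the DUXC libraries, CSN2, the gene of beta-casein, had 2 and 2, and CSN3 had 2 and 6. The ameloblast gene AMBN had 4 and 19 counts, ENAM had none and 12, and AMTN had 1 and none. PRR27 and CABS1 had no count in any library.

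**Figure D2:**
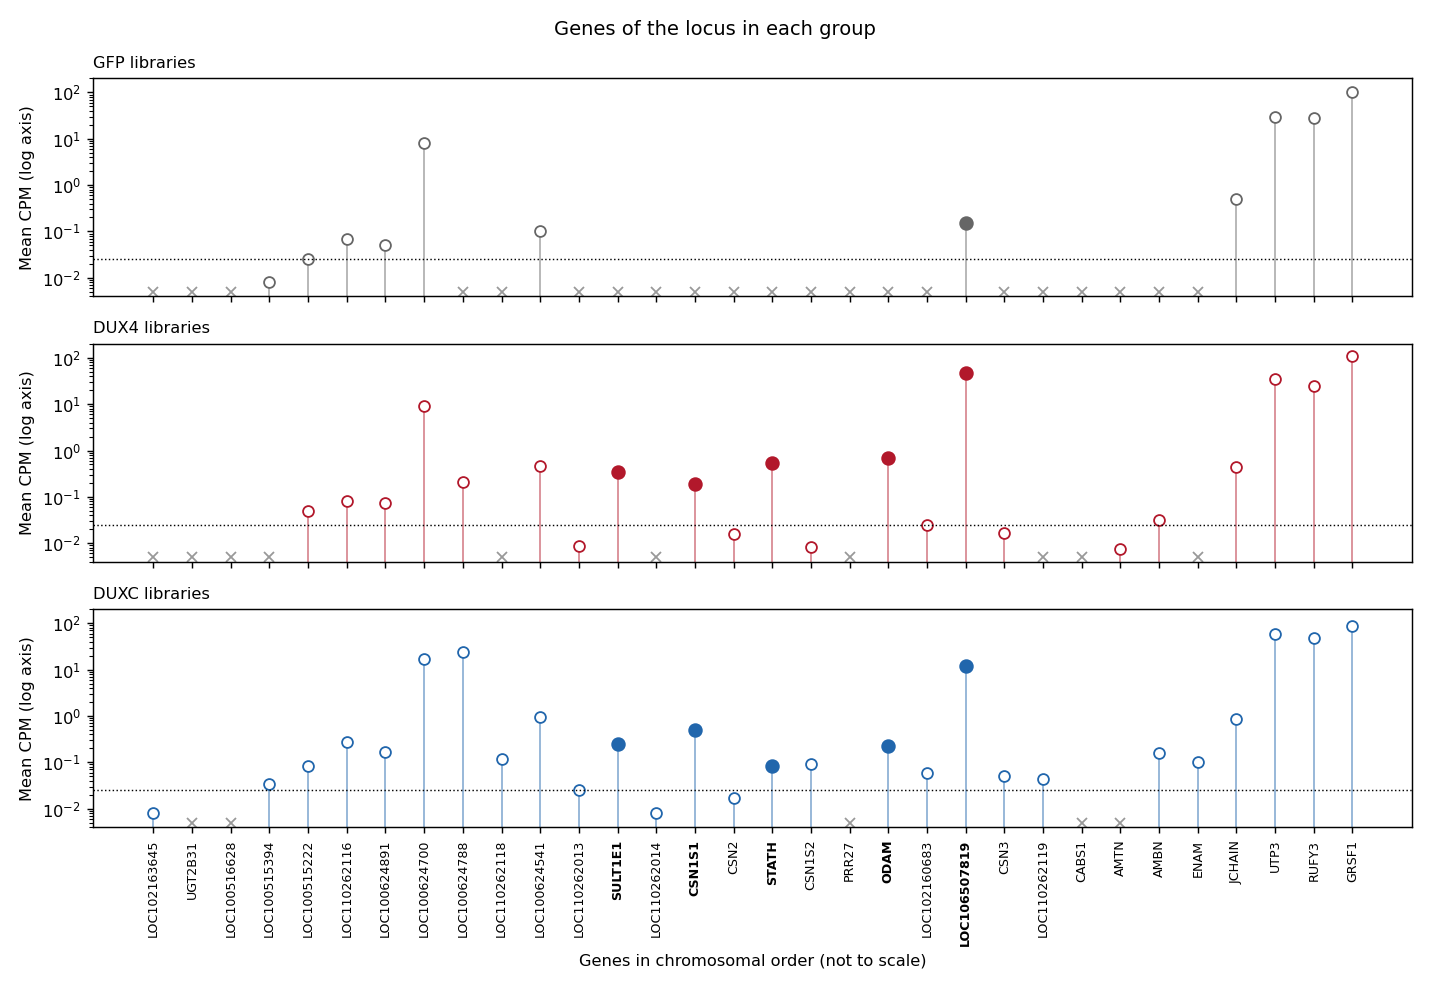
Mean CPM (log axis, not corrected for gene length) of the 32 genes from 500 kb before to 500 kb after the locus, in chromosomal order and not to scale, for the GFP, DUX4 and DUXC libraries (n = 3 each). Filled points are the 5 locus genes, open points their neighbours, crosses genes without counts, and the dotted line marks 3 counts over the group. With GFP the row from LOC110262013 to ENAM holds crosses except for LOC106507819.

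The neighbours were taken by position, but around a locus chosen for its response and without the 5 genes chosen for theirs, so their counts by direction describe what remains of the region. From 500 kb before to 500 kb after the locus there were 27 other genes, of which 7 could be tested. With DUX4 4 rose and 1 fell, where 32.9% of all tested genes rose and 31.9% fell (64.8% in either direction). With DUXC 6 rose and 1 fell, where 40.2% rose and 42.3% fell (82.5%). Between the factors 6 of the 7 were lower with DUX4 and 1 was higher, against 41.6% and 40.8% of all tested genes (82.4%). These calls are from edgeR's two-sided quasi-likelihood test with Benjamini-Hochberg adjustment over all tested genes, at an adjusted p of 0.05.

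The neighbour with the widest difference was LOC100624788 (66646241 to 66689685), a protein-coding gene in RefSeq that ends 122 kb before SULT1E1. It had no count with GFP, 5, 11 and 10 counts with DUX4 and 910, 1013 and 869 counts with DUXC. Its level was 0.211 ± 0.0759 CPM with DUX4 and 23.5 ± 1.33 CPM with DUXC. It rose at least 8.34-fold with DUX4 (adjusted p = 1.83e-06 in edgeR) and at least 929.9-fold with DUXC (adjusted p = 2.11e-38 in edgeR). Between the factors the log2 fold change of DUX4 over DUXC was -6.78 ± 0.14 (SE, edgeR adjusted p = 8.71e-38), the opposite order to that of LOC106507819.

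On the same side, LOC100624541 (66727047 to 66748761) went from 0.101 ± 0.0771 CPM with GFP to 0.464 ± 0.0425 with DUX4 and 0.950 ± 0.184 with DUXC. It rose with both factors (edgeR adjusted p = 4.09e-05 and 3.10e-10) and was lower with DUX4 than with DUXC (log2 -1.03, adjusted p = 0.000781). Its log2 fold changes against GFP, 2.16 and 3.20, were 2.83 and 3.85 without GFP replicate 2. LOC100624700 (66602127 to 66640637) had 8.25 ± 0.349 CPM with GFP and rose to 16.9 ± 0.935 CPM with DUXC (log2 1.04, edgeR adjusted p = 3.62e-18). With DUX4 it stood at 9.13 ± 0.635 CPM, which the test did not call (edgeR adjusted p = 0.0967, 0.0497 to 0.387 over the alternatives).

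On the other side, beginning 349 kb after LOC106507819, lie genes with reads in every group. JCHAIN, which encodes the joining chain of secreted antibodies, went from 0.488 ± 0.0768 CPM with GFP to 0.842 ± 0.206 with DUXC (log2 0.78, edgeR adjusted p = 0.00810, 0.00382 to 0.0881 over the alternatives), a call lost without DUXC replicate 3, at 0.0881. UTP3, a factor of ribosome assembly, went from 30.0 ± 1.09 CPM to 34.9 ± 0.651 with DUX4 and 58.9 ± 1.08 with DUXC. RUFY3 fell from 28.3 ± 1.51 to 24.4 ± 0.719 CPM with DUX4 and rose to 49.1 ± 1.32 CPM with DUXC. GRSF1, an RNA-binding protein of mitochondria, was the exception in its order, rising slightly from 101 ± 1.00 to 108 ± 1.73 CPM with DUX4 (log2 0.09) and falling to 89.2 ± 2.60 CPM with DUXC (log2 -0.18). The edgeR adjusted p-values of these last 3 genes were 0.0153 or lower against GFP. JCHAIN, UTP3, RUFY3 and GRSF1 were also the 4 tested genes of a list of the casein locus and its flanks, apart from the 5 locus genes, with a median log2 fold change of -0.05 with DUX4 and 0.79 with DUXC.

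With no filter on low counts, 23 neighbours could be fitted and 8 more passed with DUXC against GFP, all of them higher, which makes 15 of 23 where 63.4% of all fitted genes passed. Among the 8 were CSN1S2 (edgeR adjusted p = 0.00451), CSN3 (0.0405), AMBN (0.000116) and ENAM (0.00304). No further neighbour passed with DUX4 against GFP under that setting. Between the factors 12 of the 23 passed, where 61.7% of all fitted genes did, and CSN1S2, AMBN and ENAM were lower with DUX4 (edgeR adjusted p = 0.0261, 0.0206 and 0.00270). These 4 genes rest on 6 to 19 reads over the DUXC libraries.

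**Figure D3:**
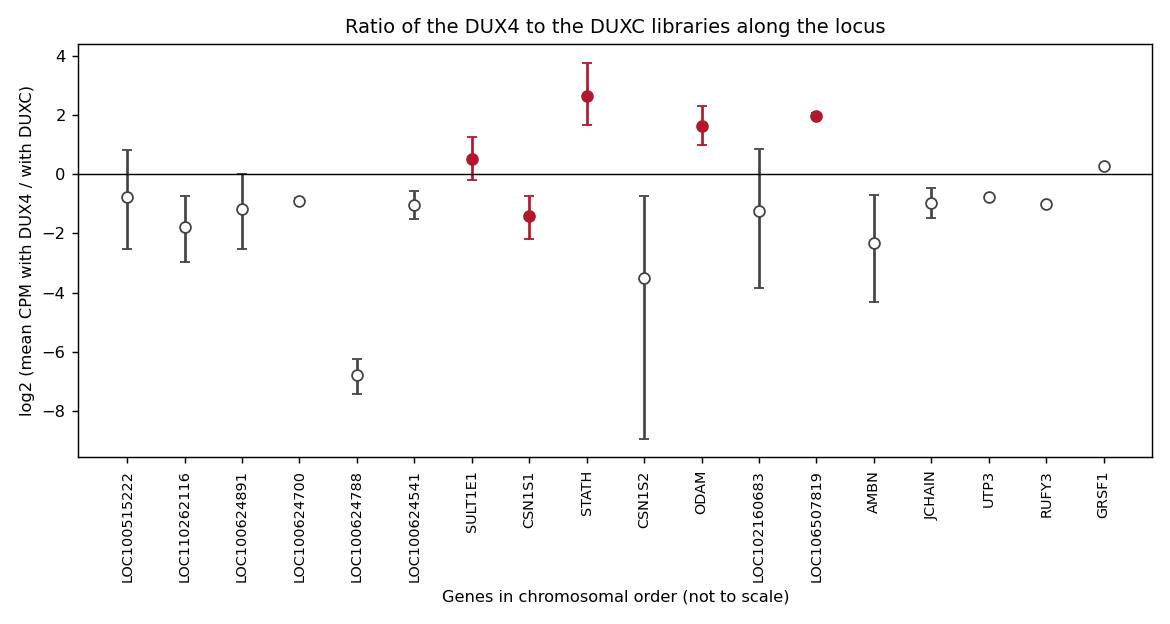
Log2 ratio of mean CPM in the DUX4 over the DUXC libraries (n = 3 each) for the 18 genes with at least 10 counts over both groups and 1 or more in each, in chromosomal order and not to scale, with 95% counting intervals. Filled points are the 5 locus genes and open points 13 neighbours, of which 10 have intervals below 0, 1 above it and 2 across it, while STATH, ODAM and LOC106507819 lie above 0. LOC110262118 and ENAM, with 14 and 12 counts with DUXC and none with DUX4, have no ratio and are not plotted.

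Along the chromosome, STATH, ODAM and LOC106507819 span 146 kb, and they are the 3 tested genes of that stretch. All were higher with DUX4 than with DUXC, an order known when they were chosen. STATH and ODAM had enough counts to be tested only through the DUX4 libraries, so the filter also favoured this order. CSN1S2 and LOC102160683 lie in the same stretch with ratios of DUX4 to DUXC of 0.0888 (counting interval 0.00204 to 0.603) and 0.423 (0.0689 to 1.81).

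Few markers of the tissues in which these genes are known exceeded 1 CPM. In each group these were 1 of 7 mammary, 2 of 7 salivary, 0 of 7 ameloblast and odontogenic and 3 of 10 epithelial markers. Of 6 hepatocyte markers, none did with GFP or DUX4 and 1 did with DUXC. The 7 mammary markers summed to 55.7 to 59.4 CPM in the GFP libraries, 58.9 to 63.0 in the DUX4 and 76.4 to 80.3 in the DUXC libraries, nearly all of it GATA3, and LALBA, the gene of the milk protein alpha-lactalbumin, had no count with GFP or DUX4 and 1 with DUXC. The 7 matched salivary markers summed to 5.41 to 6.21 CPM, 4.06 to 5.62 and 7.96 to 8.54 in the same order, with BPIFA2 at 0 with GFP and DUX4. Among them MUC19 had 3.02, 1.78 and 6.21 CPM, MUC5B 2.19, 2.55 and 0.809 CPM and the amylase gene AMY2 0.353, 0.428 and 1.14 CPM. The 2 above 1 CPM were thus MUC19 and MUC5B with GFP and DUX4, and MUC19 and AMY2 with DUXC. The 7 ameloblast and odontogenic markers, 3 of which lie in the stretch up to ENAM, summed to 0.462 to 0.719 CPM, 0.410 to 0.664 and 1.39 to 1.58. AMELX, AMBN, ENAM, AMTN and MMP20 were at 0 with GFP. DSPP made up most of the sums with GFP and DUX4, with 66, 59 and 50 counts over the GFP, DUX4 and DUXC libraries. KLK4 had 8, 1 and 72 counts in that order, AMELX 0, 1 and 12 and MMP20 0, 0 and 9, and AMTN had none with DUXC. The 10 epithelial markers summed to 13.9 to 16.7 CPM, 13.6 to 14.4 and 8.69 to 10.04, with EPCAM and GRHL2 at 0 with GFP and DUX4. Single epithelial markers went both ways, with 3 higher and 2 lower of 8 tested with DUX4 and 3 higher and 3 lower with DUXC. CDH1 had 2, 12 and 62 counts, KRT8 0, 1 and 91 and GRHL2 0, 0 and 70 over the GFP, DUX4 and DUXC libraries. In the same order, ESRP1 had 683, 818 and 239 counts, KRT7 394, 501 and 163 and CLDN4 569, 260 and 359. The 6 hepatocyte markers summed to 0.770 to 1.35 CPM, 1.08 to 1.79 and 3.49 to 4.11, with SERPINA1 at 0 throughout. Of the 5 tested, 3 were higher and 1 was lower with DUXC, and 0 were called with DUX4. ALB had 12, 19 and 192 counts, APOB 0, 3 and 101, TTR 0, 3 and 59 and FGB 76, 77 and 41 in that order. The part of any of the cell types above in the reads of the locus was not tested.

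The counts in the gene lists that follow stand beside 32.9% higher and 31.9% lower of all tested genes with DUX4 and 40.2% higher and 42.3% lower with DUXC. Among other milk proteins and milk fat genes, 8 of 18 matched genes could be tested, and 3 rose and 4 fell with either factor, with a median log2 fold change of 0.09 with DUX4 and -0.23 with DUXC beside 0.00 and -0.03 over all tested genes. PTHLH, which encodes a hormone that the lactating breast secretes, rose from 1.33 ± 0.211 CPM to 33.0 ± 1.29 with DUX4 and 107 ± 2.82 with DUXC (edgeR adjusted p = 4.95e-42 and 5.48e-51). PLIN2, a coat protein of lipid droplets, rose with both factors (log2 0.87 and 0.42), and LCN2, a secreted lipocalin, fell with both (log2 -2.80 and -1.51). B4GALT1, which with alpha-lactalbumin makes lactose, fell with both (log2 -0.53 and -0.13), the call with DUXC being lost in DESeq2 (adjusted p = 0.194) and with its size factors (0.144). The milk fat globule gene MFGE8 fell with both (log2 -0.25 and -0.54).

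Of 16 tested regulators of casein genes, 4 rose and 12 fell with DUX4, with a median of -0.50, and 8 rose and 6 fell with DUXC, with a median of 0.18. STAT5A, which carries the prolactin signal to casein promoters, fell from 28.2 ± 0.758 to 16.0 ± 0.730 CPM with DUX4 and stood at 26.7 ± 0.638 CPM with DUXC (edgeR adjusted p = 1.17e-18 and 0.117, the second 0.0249 to 0.927 over the alternatives). NFIB, a factor that binds casein promoters, fell to 20.1 ± 1.20 CPM with DUX4 and rose to 149 ± 2.59 with DUXC, from 32.1 ± 1.13 with GFP. JAK2, the kinase of the prolactin receptor, rose with both factors (log2 0.28 and 1.04). CEBPB (log2 -0.32 and -0.98) and CEBPD (log2 -1.10 and -0.24) fell with both. SOCS2, a feedback inhibitor of this pathway, rose with both factors (log2 1.33 and 1.37).

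Of 7 tested salivary and other secretory protein genes, none rose and 3 fell with DUX4, and 4 rose and 3 fell with DUXC. The lysozyme gene LYZ rose with DUXC from 0.0762 ± 0.0684 to 1.22 ± 0.336 CPM (edgeR adjusted p = 6.54e-12), a log2 fold change of 3.96 that was 4.90 without GFP replicate 2. The mucin gene MUC19 fell with DUX4 and rose with DUXC (log2 -0.76 and 1.04), MUC5B fell with DUXC (log2 -1.43), and the protease inhibitor genes SLPI (log2 -3.62 and -0.45) and CST3 (log2 -0.77 and -0.39) fell with both, the call of SLPI with DUXC being lost in DESeq2 (adjusted p = 0.0704).

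The bone and tooth genes of the same phosphoprotein family that lie outside the locus, taken with the related SPARC genes, gave 7 tested members. With DUX4 1 rose and 4 fell, with a median of -0.36, and with DUXC 3 rose and 3 fell, with a median of -0.40. IBSP, bone sialoprotein (chromosome 8, 131208281 to 131222048), had 1 count with GFP, 1 with DUX4 and 967 with DUXC, a ratio of DUXC to GFP of 952 with a counting interval of 173 to 38231 (edgeR adjusted p = 6.27e-31). The single GFP read was in replicate 3 and the single DUX4 read in replicate 3, so the fitted log2 fold change of 9.46 with DUXC was 11.35 without that GFP library. Its neighbour SPP1, the osteopontin gene (131077786 to 131085334), rose with both factors, from 2.46 ± 0.298 CPM to 21.4 ± 1.07 with DUX4 and 15.7 ± 1.59 with DUXC. SPARC, a collagen-binding matrix protein, fell with both (log2 -0.36 and -1.46), as did SMOC1 (log2 -1.13 and -0.54) and SMOC2 (log2 -4.40 and -1.09). Without DUX4 replicate 2 the first value of SMOC2 was -5.47.

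Around the enzyme SULT1E1, 9 genes of sulfotransferases and of the synthesis and transport of their sulfate donor were tested, with 4 higher and 3 lower with DUX4 and 3 higher and 6 lower with DUXC. Of the genes that make the donor, PAPSS1 rose with both factors (log2 0.35 and 0.28), and PAPSS2 rose with DUX4 and fell with DUXC (log2 0.54 and -0.38). BPNT1, which breaks down a by-product of the donor, rose with DUXC (log2 0.92), and IMPAD1, a related phosphatase, fell with both (log2 -0.55 and -0.75). SLC35B3, a transporter of the donor, fell with both (log2 -0.20 and -0.54). SULT1A3 fell with both (log2 -1.50 and -0.17), the call with DUXC being lost in DESeq2 (adjusted p = 0.263), without DUXC replicate 1 (edgeR 0.0728) and without GFP replicate 3 (0.0827), among other settings, and its reads may be shared with close paralogs.

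Of 7 tested genes of oestrogen synthesis, turnover and reception, 3 rose and 2 fell with DUX4 and 3 rose and 3 fell with DUXC. CYP19A1, the aromatase that makes oestrogen, was at 0 in all GFP libraries. It had 0.162 ± 0.0986 CPM with DUX4, at least 6.42-fold higher, and 2.18 ± 0.282 CPM with DUXC, higher by a factor of at least 86.3 (edgeR adjusted p = 6.51e-05 and 7.49e-19). The receptor gene ESR2 rose from 0.0428 ± 0.0392 CPM to 0.373 ± 0.132 and 0.596 ± 0.0780 CPM, log2 fold changes of 3.06 and 3.73 that were 3.74 and 4.41 without GFP replicate 2. HSD17B12 rose with DUX4 (log2 0.24), and HSD17B4 fell with both (log2 -0.21 and -0.14), the call with DUXC being lost in DESeq2 (adjusted p = 0.102). STS, which removes the sulfate that SULT1E1 adds, fell with DUXC (log2 -1.41).

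**Figure D4:**
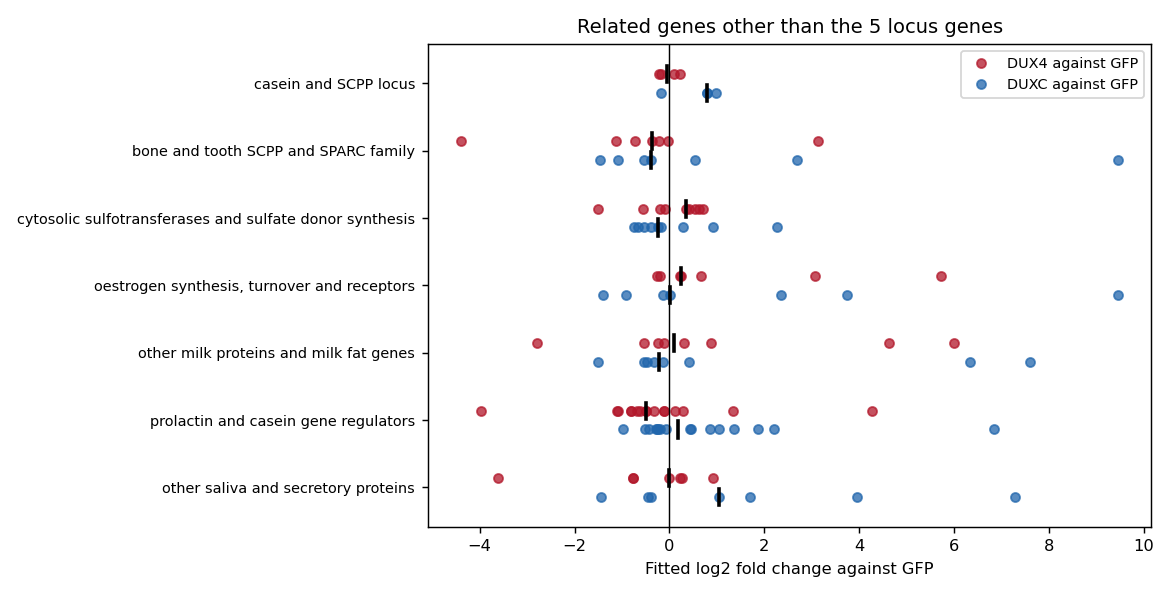
Fitted log2 fold change against GFP (n = 3 libraries per group) of the tested genes of 7 related lists other than the 5 locus genes, with DUX4 above and DUXC below in each row, and the median as a black bar. The 2 comparisons share their GFP libraries. The farthest points to the right are IBSP and CYP19A1 with DUXC, which had 1 and 0 counts with GFP, so their position depends on the fit.

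The genes whose pattern over the 9 libraries was most like that of a locus gene lay on other chromosomes in 12 of 15 cases, with LRAT and LOC100525472 on chromosome 8 and no position matched for STEAP1_1. Likeness was measured as Pearson's r of log2 CPM, a description in which the 3 groups make up most of the variation. For LOC106507819 these were STEAP1_1, CKAP2 and LOC106504929 (r = 0.999, 0.998 and 0.997), and for ODAM ST8SIA4, FANCI and MCM10 (r = 0.995, 0.994 and 0.994). For SULT1E1 they were LRAT, RIMS2 and OSTN (r = 0.995, 0.994 and 0.993), for STATH they included RGS17 and LOC100525472 (r = 0.989 and 0.988) and for CSN1S1 they were LOC106510131, CYB5B and CD68 (r = 0.993, 0.993 and 0.992). Within the locus, r to LOC106507819 was 0.985 for SULT1E1, 0.981 for ODAM, 0.895 for STATH and 0.815 for CSN1S1, and the lowest value was that of CSN1S1 with STATH, 0.534.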

How the data were processed

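RNA was sequenced with a stranded mRNA kit per the labels' protocols. The authors deposited whole-number read counts for each gene without scaling. The submitters' processing notes name CASAVA 1.9, Trim Galore, featureCounts and build Sscrofa11.1, and the file headers name Subread. Neither an annotation release nor the strand option used in counting is stated in the sources used here. Gene positions were taken from RefSeq for Sscrofa11.1 (26838 of 27339 genes matched by symbol). A single edgeR 4.0.16 model by group (R 4.3.3) held all 9 libraries after filterByExpr, with TMM factors of 0.960 to 1.06 and robust quasi-likelihood estimation, and with Benjamini-Hochberg adjustment over all tested genes of a contrast. The SE of a log2 fold change was taken from its F statistic. The pipeline was tested on simulated data, which left out genes with few or no counts with GFP, all 5 locus genes among them. Changes were set only in genes with higher GFP levels, so the test does not cover genes like these. The members and gene lists were chosen with earlier results of these data known. Named are the 5 locus genes, tested neighbours within 500 kb, up to 4 called genes per list and factor by smallest p, and the 3 genes of highest r per locus gene; CSN1S2, CSN2, CSN3, AMBN, ENAM, AMTN and LOC102160683 are named with their counts, and PRR27 and CABS1, without counts, were added after their values were seen. A fold against a group without counts is a bound against 3 counts over the group, with the mean of the other group taken as measured. Some genes that the rule for naming selects are not reported here. Promoter motifs and sequences were not analysed here. Alternatives were DESeq2 1.42.0, its size factors, other filters, a replicate block, the 6 libraries compared, other windows and leaving out each library. Libraries of a group differed beyond sampling noise. Their chi-square divided by its degrees of freedom was 2.62 to 3.67 for pairs of GFP libraries, 3.19 to 4.39 for DUXC and 6.83 to 17.9 for DUX4.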

Additional observations from a re-analysis of the deposited data

How the results depend on the processing

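The numbers of genes called, and of list members called over all lists together, stayed within 1.5 times under every alternative run. Counts of single lists by direction moved by more than that in 4 cases. No called direction turned in the results recomputed. Neighbours called depended on the filter and, by construction, on the window. Without a filter on low counts, 15 passed with DUXC against GFP and 12 between the factors, in place of 7 and 7, with 63.4% and 61.7% of all fitted genes passing. In a window of 250 kb, 2 passed with DUX4, 3 with DUXC and 3 between the factors, and in one of 1000 kb 12, 16 and 16. Leaving out each library in turn moved the log2 bounds against GFP, which by construction fall when a control is left out. With DUX4 they ranged from 3.18 to 3.95 for SULT1E1, 2.28 to 2.99 for CSN1S1, 3.78 to 4.48 for STATH and 4.19 to 4.98 for ODAM. With DUXC they ranged from 2.65 to 3.38 for SULT1E1, 3.70 to 4.59 for CSN1S1, 0.99 to 2.02 for STATH and 2.55 to 3.30 for ODAM. The fitted log2 fold change of LOC106507819 between the factors was 1.95 to 2.02. Libraries sharing a replicate number had residual correlations of -0.0258 to 0.0318 over all tested genes. A value over all genes cannot show whether such libraries share a batch that acts on some of them. With the replicate number as a block, 10272 genes passed with DUX4, 13125 with DUXC and 13092 between the factors, and LOC106507819 stayed at log2 1.98. Depth limits the 4 protein-coding genes, whose levels rest on 10 to 87 reads per group.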
